A study of Mus musculus with 4 samples.

Results

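Conventional and migratory dendritic cells are described here in immune cells sorted from the brains of mice after cardiac arrest. The cells were selected by a rule on their transcripts: at least 1000 UMIs (unique molecular identifiers, each standing for 1 captured RNA molecule), at most 10% mitochondrial UMIs, at least 2 of the 6 genes Flt3, Zbtb46, Cd209a, Xcr1, Clec9a and Ccr7 detected, at least 0.5% of UMIs from the 4 MHC class II genes H2-Aa, H2-Ab1, H2-Eb1 and Cd74, and no UMI of Cd3e, Cd79a, Ms4a1 or S100a9. The rule found 111 cells among 30363 barcodes that passed the UMI and mitochondrial limits. All mice were wild-type C57Bl/6. Young mice were 3 to 6 months old and aged mice 18 to 20 months old, and each age had a sham-operated group and a group with cardiac arrest (CA) brought on by KCl and followed by resuscitation. Brains were taken on day 3 after perfusion, and CD45-positive cells were sorted after mechanical dissociation and Percoll enrichment and made into droplet 3' single-cell libraries. Each of the 4 groups is 1 library pooled from 3 mice. The spread between mice therefore cannot be seen, no test of a condition was possible, and every interval printed is a 95% interval that covers counting error only.

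Dendritic cells take up antigen, carry it to lymph nodes and present it to T cells on MHC molecules. Type 1 conventional dendritic cells (cDC1) depend on Irf8 and Batf3, carry Xcr1 and Clec9a and are known for cross-presenting antigen from dead cells to CD8 T cells, while type 2 cells (cDC2) carry Cd209a, Sirpa and Clec10a and mainly serve CD4 T cells. On maturation either type can switch on Ccr7, the receptor that guides cells along lymph vessels. In the brain these cells sit mainly in the meninges and choroid plexus, and few are found in healthy parenchyma.

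The libraries held between 6794 and 10794 barcodes and between 44277472 and 115892682 UMIs. Between 15 and 32 barcode sequences occurred in both libraries of a pair. Dendritic cells were deep: their median UMI count was 18245 in sham and 19784 after CA for the young mice, and 14066 and 19941 for the aged, against 7298, 10059, 3749 and 10582 over the barcodes kept. Doublet scoring marked 7 of the 111 cells, all in young CA.

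The genes of the rule describe the cells and are no finding. Flt3, the growth factor receptor of dendritic cell precursors, was detected in 101 of the 111 cells, and Zbtb46, a transcription factor of conventional dendritic cells, in 79. Cd209a, a C-type lectin of cDC2, was detected in 54, the dead-cell receptor Clec9a in 33, Ccr7 in 19 and the chemokine receptor Xcr1 in 16. Among cells with at least 2 of the 3 microglial genes P2ry12, Tmem119 and Sall1 (median 4202 to 11240.5 UMIs), Flt3 was detected in 1.97% to 2.49%, Zbtb46 in 3.09% to 5.96%, Cd209a in 0.0252% to 0.173%, Xcr1 in 0.198% to 0.439%, Clec9a in 0.171% to 0.494% and Ccr7 in 0.0144% to 0.134%. This microglia set left out members and barcodes with a gene barred by the rule. It also left out barcodes that met the marker limits of the monocyte or border macrophage sets used below, which were cut in the same way. Members had to hold at least 2 of the 6 rule genes, so the comparison with microglia shows only the background of each gene. The MHC class II genes took a median of 4.09% and 3.41% of UMIs in the young sham and CA cells, and of 3.87% and 4.76% in the aged sham and CA cells. At the edges of the rule, 49 cells had exactly 2 of the 6 genes and 12 had 0.5% to 1% MHC class II UMIs. Just outside lay 112 barcodes with 1 gene and enough MHC class II, 116 with 2 or more genes and too little MHC class II, and 15 that carried a gene barred by the rule.

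The label was checked against other markers. Itgax, the integrin CD11c that the rule did not use, was detected in 7 of 15 young sham cells, 60 of 83 young CA cells, 3 of 9 aged CA cells and none of the 4 aged sham cells. It is no marker of dendritic cells alone: in microglia it was detected in 2.66% to 12.8%, and in young CA cells with both Ly6c2 and Ccr2, markers of recruited monocytes, in 37.7% (46 of 122, median 18947 UMIs). The 72.3% of young CA dendritic cells lay above these shares, and the 33.3% of aged CA dendritic cells did not lie above that of the young CA monocyte set. Transcripts of other brain myeloid cells were present in some cells: 24 of the 111 held at least 2000 CPM (UMIs of the genes over all UMIs, scaled to a total of 1000000) of a list of 12 microglial genes, and 27 passed that limit or a limit of 5000 CPM for border macrophage or plasmacytoid genes. These 27 were 6 of the 15 young sham cells, 17 of the 83 young CA cells, 3 of the 4 aged sham cells and 1 of the 9 aged CA cells. The aged sham library thus held 4 cells by the rule, of which 1 was low in all 3 lists, and its label rests on Flt3 and Clec9a, each detected in all 4. The 84 cells low in the 3 lists are called filtered cells below. The filter did not use the monocyte list, but F13a1 is on both that list and the border macrophage list. The monocyte list summed to 5098 CPM in the filtered young CA cells and 5510 in all 83. In young sham it summed to 3525 and 5052 CPM, against 21135 in the monocyte set of young CA.

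Dendritic cells were more frequent after CA in the young libraries. They made up 0.185% of kept barcodes in young sham (15 of 8123, 0.103 to 0.304), 0.837% in young CA (83 of 9919, 0.667 to 1.04), 0.0609% in aged sham (4 of 6570, 0.0166 to 0.156) and 0.157% in aged CA (9 of 5751, 0.0716 to 0.297). The young intervals did not overlap, while those of aged sham and aged CA did. The share in young CA was 4.53 times that in young sham (2.60 to 8.46). Among filtered cells the ratio was 6.01, from 66 and 9 cells, and among cells with at least 3 of the rule genes it was 7.1, from 52 and 6. The aged CA share was 2.57 times the aged sham share, but the interval (0.717 to 11.4) includes 1. Aged CA held 0.187 of the young CA share (0.0826 to 0.373) and aged sham 0.330 of the young sham share (0.0797 to 1.04). Shares depend on all other cells in the sort, and neither this nor the age of the mice can be told apart from the library.

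**Figure D1:**
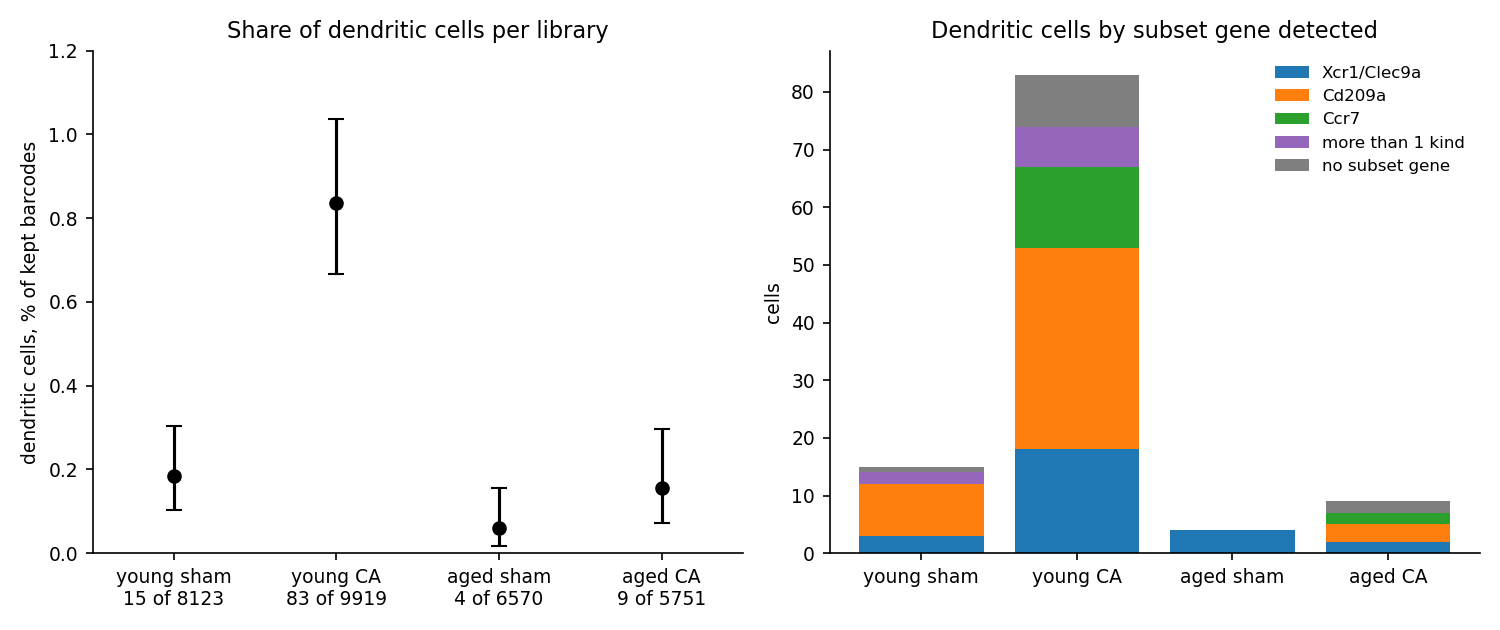
Left: dendritic cells as a percent of kept barcodes in each library, with exact 95% intervals that cover counting error only; young CA at 0.837% stands above the other 3 libraries. Right: the number of dendritic cells in each library by the subset gene detected; Ccr7 cells appear in the 2 CA libraries.

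The cells were split by the subset genes they carried. Over all libraries 27 cells had Xcr1 or Clec9a, 47 had Cd209a and 16 had Ccr7 without a gene of another kind, 9 had more than 1 kind and 12 had none. Young sham held 3 Xcr1/Clec9a, 9 Cd209a and 0 Ccr7 cells, and young CA held 18, 35 and 14. Aged sham held 4 Xcr1/Clec9a cells and no other kind, and aged CA held 2, 3 and 2. Of the 9 cells with more than 1 kind, 6 paired Xcr1 or Clec9a with Cd209a, 2 paired Xcr1 or Clec9a with Ccr7 and 1 paired Cd209a with Ccr7. Of those 6, 3 were the only members over the plasmacytoid limit, at 6365 and 15511 CPM in young sham and 13797 in young CA. Their MHC class II genes took 0.891%, 0.778% and 0.602% of UMIs, and their label as conventional dendritic cells is less certain.

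As a share of all kept barcodes, Ccr7 cells differed between the young libraries while their share of the dendritic cells was not distinguishable. A Ccr7 UMI was found in 17 of 83 dendritic cells of young CA and 2 of 9 of aged CA, and in 0 of 15 and 0 of 4 cells of the young and aged sham libraries. For young sham, the exact interval of 0 of 15 reaches up to 21.8%, which overlaps that of the 20.5% in young CA (12.4 to 30.8). Of all kept barcodes, the interval of the 0 in young sham reaches up to 0.0454%, and the 17 in young CA make 0.171% (0.0999 to 0.274). Cd209a cells were 60.0% of the dendritic cells in young sham (32.3 to 83.7) and 42.2% in young CA (31.4 to 53.5), and these intervals overlap. Xcr1/Clec9a cells were 20.0% (4.33 to 48.1) and 21.7% (13.4 to 32.1).

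The 27 Xcr1/Clec9a cells together held more cDC1 transcripts than the other subsets, but not every cell did. Their summed cDC1 list, without Xcr1 and Clec9a, ran from 80.8 to 1319 CPM in 8 cells and from 1504 to 8891 in the other 19, a limit set after seeing the values. The 8 lay near the 1185 CPM of young sham microglia or below it, and 4 of them held over 5000 CPM of border macrophage genes. The subsets were cut by transcripts of the same cells, so these ratios describe them, and the rule genes are left out. A gene was measured where at least 20% of cells on either side, and at least 3 cells, held a UMI and both sides held at least 20 UMIs together, and a call needed a 2-fold difference after adding 10 CPM to each side. All 10 measured cDC1 genes were at least 2-fold higher than in the other 2 subsets, with a median log2 ratio of 2.80 against 0.00 over all 7435 measured genes, of which 3.32% were called higher and 5.0% lower. In the 20 filtered cells the count was also 10 of 10 (median 3.02, with 3.62% of genes called higher). Irf8, a factor that cDC1 need to develop, was at 1297 CPM in Xcr1/Clec9a cells, 81.1 in Cd209a cells and 459 in Ccr7 cells. Wdfy4, which cDC1 need for cross-presentation, was at 893, 148 and 44.8 CPM. Batf3 was at 195, 33.1 and 44.8 CPM, and Tlr3, a sensor of double-stranded RNA, at 166, 13.9 and 14.9.

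Other leading genes had few or no UMIs in the other 2 subsets. Gcsam was at 93.4 CPM, from 13 of the 27 cells, with 0 UMIs in the other 63 cells of the 3 subsets, at least 37.5-fold higher. Clnk, an adaptor of immune receptor signaling, was at 74.7 CPM with 0 UMIs elsewhere, at least 30.0-fold higher. Rab7b, a GTPase of late endosomes, was at 216 CPM against 18.1 and 3.73 (14.4-fold, 8.77 to 25.1). Cd36, a scavenger receptor, was at 114 CPM, but 1 cell gave 70.2% of its UMIs.

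The 47 Cd209a cells carried cDC2 genes. Of 13 measured cDC2 genes 11 were at least 2-fold higher than in the other subsets (median log2 ratio 1.64 against 0.01 over all 7421 genes, of which 3.25% were called higher and 4.18% lower). In the 40 filtered cells 11 of 13 were higher (median 1.94, with 5.62% of genes called higher). Irf4, a factor of cDC2, was at 47.0 CPM in Cd209a cells, 3.4 in Xcr1/Clec9a cells and 29.8 in Ccr7 cells. Klf4, a factor of a cDC2 branch, was at 106, 13.6 and 22.4 CPM. Clec10a, a lectin that binds galactose-type sugars, was at 170, 15.3 and 101 CPM, and the Ccr7 value came from 1 cell. Cd24a, on the list but also known from cDC1, went the other way, with 43.8 CPM in Cd209a cells and 284 in Xcr1/Clec9a cells.

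Cd209a cells led in several further genes. Cd7 was at 186 CPM against 15.3 and 7.46 (14.5-fold higher than in the other 2 subsets together, 7.89 to 29.5), from 24 of the 47 cells. Emilin2, an extracellular matrix glycoprotein, was at 107 CPM against 1.70 and 14.9. Il1r2, the decoy receptor of interleukin 1, was at 152 against 18.7 and 18.7 CPM. Ccr2, the receptor by which monocytes and their relatives leave the blood, was at 696 CPM in Cd209a cells, 343 in Xcr1/Clec9a cells and 14.9 in Ccr7 cells.

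The 16 Ccr7 cells carried the genes of mature, migratory dendritic cells. Of 24 measured genes of that list 23 were at least 2-fold higher than in the other subsets, with a median log2 ratio of 3.07. Over all 7403 measured genes the median was -0.17, with 7.77% called higher and 13.9% lower. In the 10 filtered Ccr7 cells 20 of 23 were higher (median 3.06, with 9.43% of genes called higher). Fscn1, the actin-bundling protein fascin, was at 735 CPM in Ccr7 cells, 10.2 in Xcr1/Clec9a cells and 4.27 in Cd209a cells (112-fold higher than in both together, 59.7 to 238). Ccl5, a chemokine that draws T cells and monocytes, was at 9436 CPM against 161 and 75.8 (86.8-fold, 74.1 to 102), from 15 of the 16 cells, while Fscn1 came from 9. Cacnb3, a calcium channel subunit, was at 310 CPM, from 8 cells, with 0 UMIs in the other 2 subsets, at least 158-fold higher.

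Ccr7 cells held more of several NF-kB, costimulatory and checkpoint transcripts, but these are not separate from the mature list counted above. Relb, Traf1, Cd274, Cd86 and Cd200 belong to that list, and the counts below share genes with it. Relb, a subunit of noncanonical NF-kB, was at 724 CPM in Ccr7 cells, 64.5 in Xcr1/Clec9a cells and 83.2 in Cd209a cells, and all 16 Ccr7 cells held a UMI. Traf1, an adaptor of TNF receptors, was at 1104, 93.4 and 148 CPM. Cd274, the checkpoint ligand PD-L1, was at 567, 42.4 and 26.7 CPM. Of 10 measured inflammatory genes of the NF-kB list 6 were called higher and 0 lower, of 11 costimulatory and cytokine genes 6 higher and 2 lower, and of 7 checkpoint ligands 4 higher and 1 lower. Among filtered cells these counts were 5 of 10 higher and 1 lower, 3 of 10 higher and 2 lower, and 4 of 7 higher and 2 lower. Cd86, which gives T cells the second signal, was at 698, 270 and 339 CPM. Cd200, a ligand that restrains myeloid cells, was at 325, 3.4 and 2.13 CPM.

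Chemokines, cytokines and antigen-processing genes differed among the subsets in both directions. Ccl22, which draws regulatory T cells, was at 224 CPM in Ccr7 cells, 38.4 in Cd209a cells and 0 in Xcr1/Clec9a cells. Cxcl16 was at 1473, 250 and 209 CPM in the same order. Il12b, a subunit of interleukin 12 and 23, was at 157 CPM from 5 Ccr7 cells, of which 1 gave 59.5% of the UMIs. Fabp5, a fatty acid binding protein, was at 2715 CPM against 72.6 and 13.6. H2-K1, a classical MHC class I chain, was at 2779 against 1134 and 1092 CPM. H2-DMa, which loads peptide onto MHC class II, was at 261 CPM in Ccr7 cells, below the 736 and 749 of the other subsets.

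**Figure D2:**
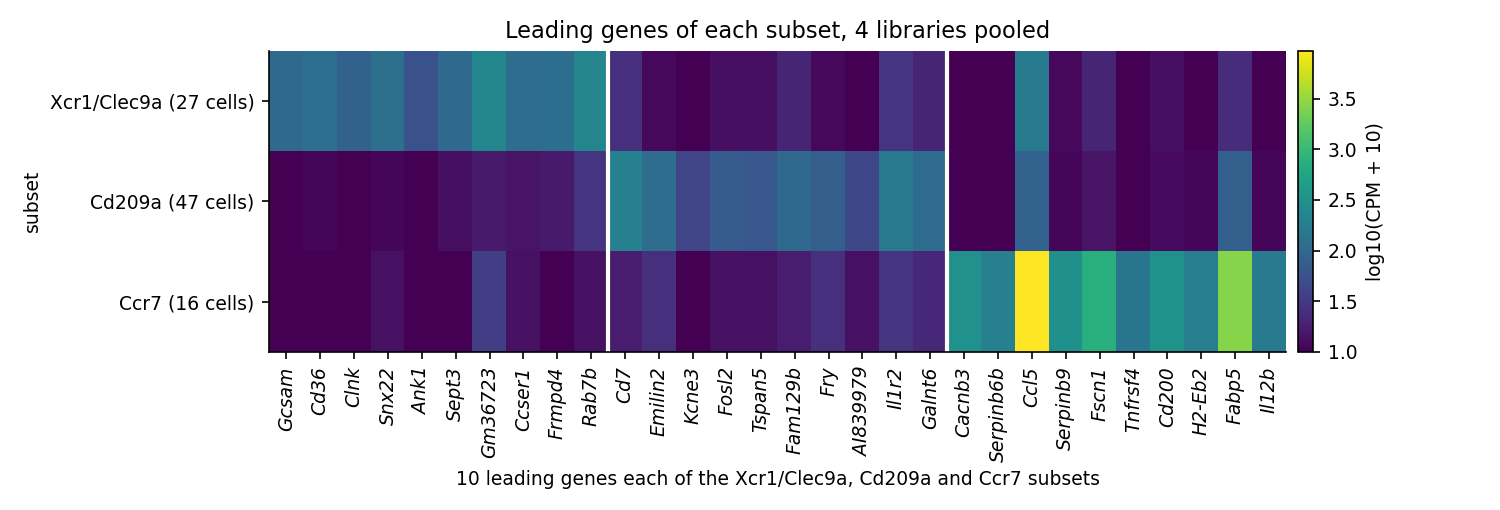
Mean level (log10 of CPM + 10) of the 10 leading genes of each subset in the 27 Xcr1/Clec9a, 47 Cd209a and 16 Ccr7 cells, 4 libraries pooled. The genes were chosen for this contrast, and each block is brightest in its own subset; Ccl5 in Ccr7 cells reaches 9436 CPM.

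Young CA was then compared with young sham. Where 4 values of a gene follow each other, they stand for sham and then CA in the young mice, and sham and then CA in the aged mice. Of 7743 measured genes, 443 (5.72%) were at least 2-fold higher in the 83 cells of young CA than in the 15 of young sham, and 409 (5.28%) were at least 2-fold lower, around a median log2 ratio of -0.03. The genes with the widest margins included Ifitm1, Irf7 and Ccl5 among those higher, and Ccl17, Mrc1 and Mgl2 among those lower. With genes at 0 in young sham set to their lower bound, the medians of the interferon, checkpoint and chemokine lists over all cells did not move. Genes with near-identical relatives, such as the Ifit, Ifitm, Oas, H2 and Serpinb families, may share reads between copies, and their single values are less certain.

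**Figure D3:**
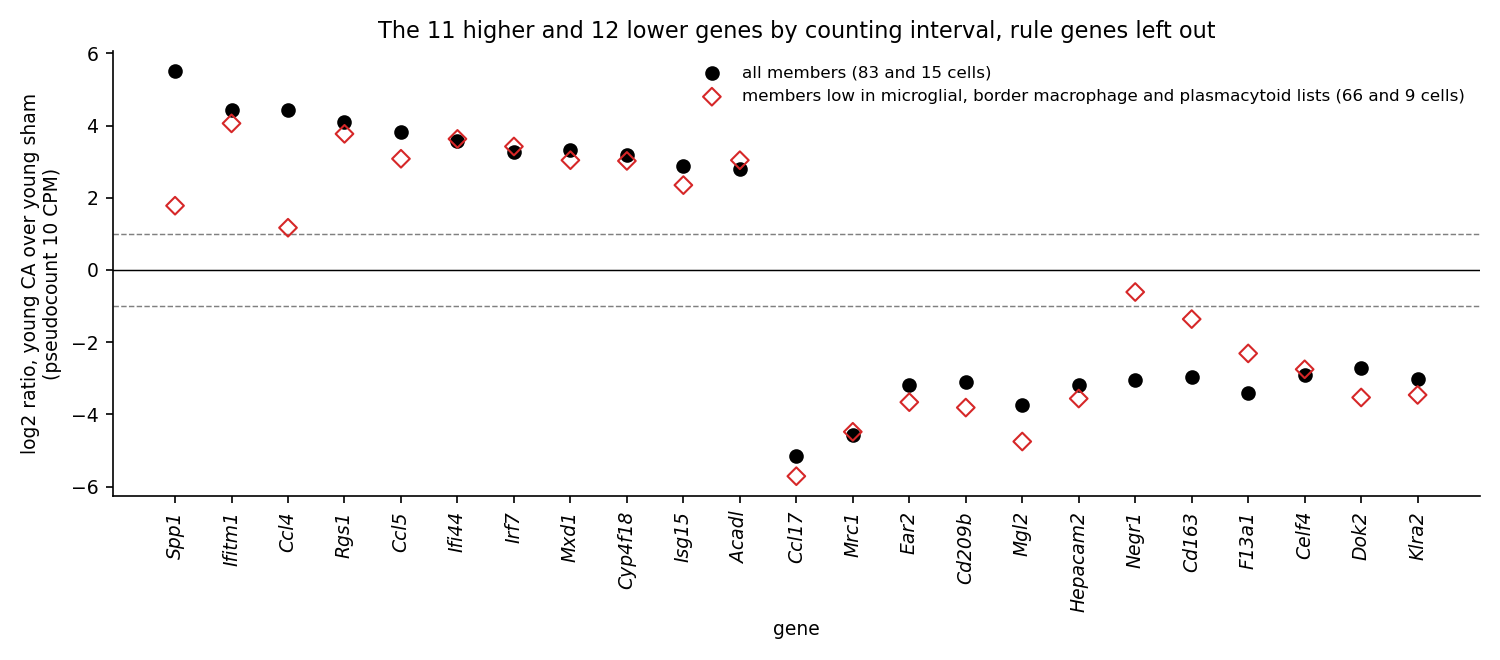
Log2 ratio of young CA over young sham (10 CPM added) for the 11 higher and 12 lower genes with the widest counting margin, with the rule gene Ccr7 left out. Black dots use all members and red diamonds the 66 and 9 filtered cells; dashed lines mark 2-fold. Spp1 drops from 5.51 to 1.78 among filtered cells and Negr1 moves to -0.61, inside the 2-fold lines. Mrc1, Cd163 and F13a1 are on the border macrophage list that the filter used.

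Interferon-stimulated genes were higher in young CA. Of 23 measured genes of the list 21 were called higher and 0 lower, with a median log2 ratio of 1.54. The shares over all measured genes were 5.72% higher and 5.28% lower. Irf7, the factor that amplifies type I interferon (chr7:141262706-141266481, GRCm38), was at 53.3 CPM in young sham and 600.5 after CA, and at 120 and 249 in the aged pair. The young CA level was 11.3 times the sham level (6.81 to 20.2), and Irf7 was detected in 77 of 83 cells against 5 of 15. Isg15, a ubiquitin-like antiviral protein, was at 114, 894, 256 and 412 CPM in the same order (7.87-fold in young, 5.55 to 11.5), in 74 of 83 young CA cells and 2 of 15 young sham cells, of which 1 gave 59.4% of the sham UMIs.

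Several sham values came from few cells. Ifit1, which binds viral RNA, was at 42.6 CPM in young sham and 227 after CA, and at 34.2 and 193 in the aged pair (5.34-fold in young, 3.02 to 10.4), and 66.7% of its young sham UMIs came from 1 cell. Ifit3 was at 74.6, 354, 17.1 and 453 CPM (4.75-fold in young, 3.08 to 7.72), and 85.7% of its young sham UMIs came from 1 cell. Ifi44 had 0 UMIs in young sham and was at 109 CPM after CA, at least 10.2-fold higher, and the aged values were 85.4 and 15.3 CPM. Ifitm1, a membrane protein of the interferon-induced family that stands outside the list, was at 110, 2582, 0 and 620 CPM (23.5-fold in young, 16.5 to 34.6), and 1 cell gave 93.5% of the sham UMIs. Bst2, or tetherin, which holds budding virus at the membrane, was at 454, 919, 410 and 351 CPM (2.02-fold in young, 1.69 to 2.44).

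Cell by cell, the young libraries overlapped but were shifted. The summed level of the 23 genes was 918 to 16578 CPM in young sham cells (median 2944) and 412 to 42467 in young CA cells (median 12517). Of 83 young CA cells 80 lay above the young sham median, and 1 of 15 young sham cells lay above the young CA median. Aged sham cells lay between 2121 and 6582 CPM (median 4734) and aged CA cells between 1481 and 29010 (median 2880). In aged CA the 2 Ccr7 cells stood highest, at 12097 and 29010 CPM, and the other 7 cells ranged from 1482 to 7264. Of the 9 aged CA cells, 4 lay below the aged sham range and 3 above it.

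**Figure D4:**
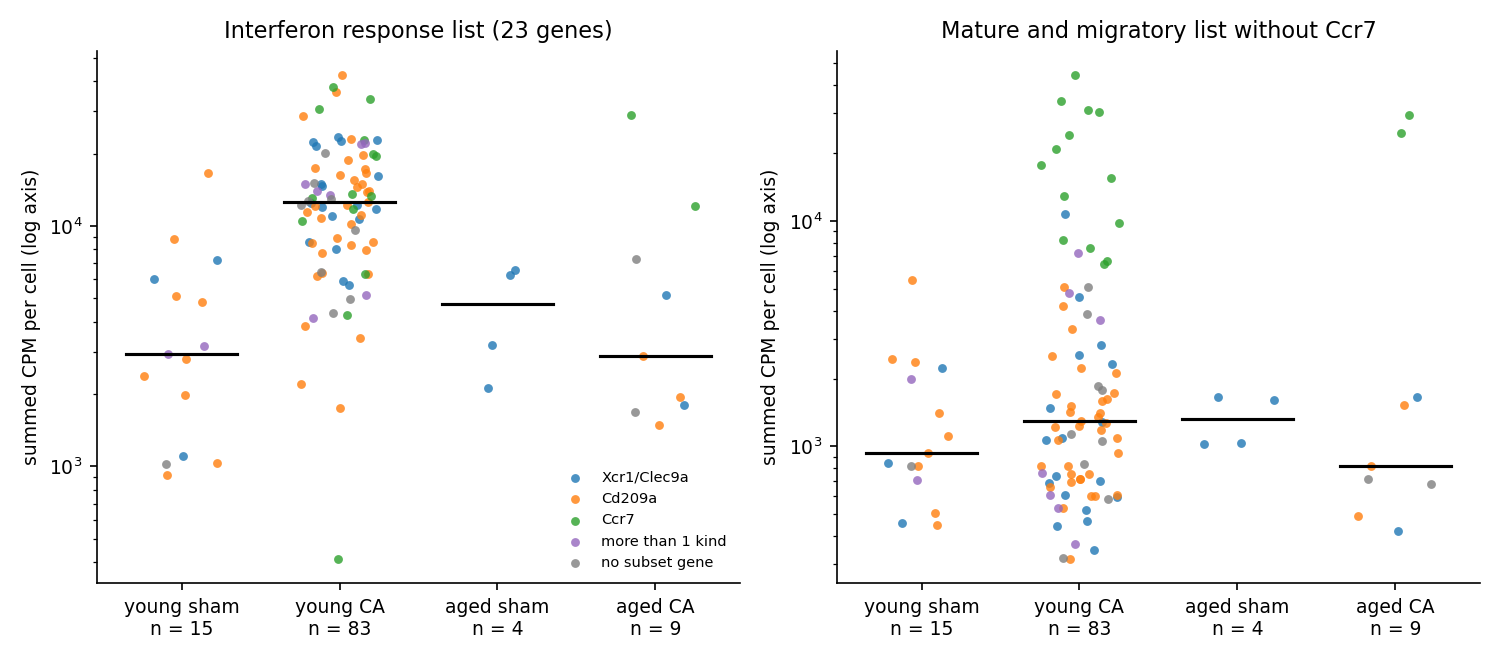
Summed CPM per cell (log axis) of the interferon response list (left) and of the mature and migratory list without Ccr7 (right) in the 4 libraries, colored by subset gene; horizontal lines are medians. Interferon sums have a median of 12517 CPM in young CA and 2944 in young sham, and the highest sums of the mature list belong to Ccr7 cells.

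The interferon difference was also seen without Ccr7 cells and within Cd209a cells. Without cells that held a Ccr7 UMI, 19 of 22 measured genes of the list were called higher and 0 lower (median log2 ratio 1.5, with 5.24% of all measured genes called higher). Among Cd209a cells alone, from 35 and 9 cells, 18 of 22 were called higher and 0 lower (median 1.5), where 10.2% of genes were called higher. In filtered cells the count was 20 of 23 and the median 1.57, with 9.69% of genes called higher. Ccr7 cells had 5 of 23 list genes called higher than the other subsets when libraries were pooled, but 1 of 23 within young CA alone, where 9.01% of genes were called higher.

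Other cells of the same libraries were compared on the summed list, in sets with the exclusions given above. In dendritic cells it was at 4317 CPM in sham and 13643 after CA in the young mice (3.16-fold, 2.98 to 3.35). In the microglia set used above it was at 454 and 3932 CPM (8.67-fold, 8.56 to 8.78, from 6946 and 8208 cells). In barcodes with at least 3 border macrophage genes it was at 5014 and 5107 CPM (1.02-fold, 0.951 to 1.09, from 39 and 42 cells). In barcodes with both Ly6c2 and Ccr2 it was at 5718 and 21092 CPM (3.69-fold, 3.20 to 4.28, from 2 and 122 cells). The level in the dendritic cells of young CA lay between those of the macrophage and monocyte sets, and no test of these differences was possible with 1 library a group.

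The promoters of 3 list genes are shown because the interferon-stimulated response element, a motif known from promoters of interferon-induced genes, can be read in them. The search used the letters GAAA, then any 2 bases, then GAAA on both strands, counting overlapping matches, in the 250 bases before the start of each gene (RefSeq, GRCm38.p6). Of 32851 promoters 2.98% held a match, and of 27025 genes 3.46%. Of the 17 genes of the interferon list with a promoter entry, 10 held one. Capitals mark the matches, on either strand, and each sequence runs 5' to 3' on the gene's strand: Isg15 at chr4:156200819-156201068 on the minus strand, with 3 overlapping matches, and Ifit1 at chr19:34640639-34640888 and Ifit3 at chr19:34583279-34583528, both on the plus strand with 2 matches. A match is a description of the letters and not a measured binding site.
Isg15: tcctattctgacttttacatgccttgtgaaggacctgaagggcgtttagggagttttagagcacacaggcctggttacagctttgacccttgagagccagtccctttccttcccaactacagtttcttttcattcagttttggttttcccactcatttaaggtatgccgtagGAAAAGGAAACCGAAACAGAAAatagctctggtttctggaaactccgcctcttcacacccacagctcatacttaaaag
Ifit1: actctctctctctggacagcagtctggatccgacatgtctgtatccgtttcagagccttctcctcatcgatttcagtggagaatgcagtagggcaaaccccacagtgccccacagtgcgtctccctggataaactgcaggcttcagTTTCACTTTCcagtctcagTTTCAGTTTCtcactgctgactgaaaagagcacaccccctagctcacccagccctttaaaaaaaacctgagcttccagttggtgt
Ifit3: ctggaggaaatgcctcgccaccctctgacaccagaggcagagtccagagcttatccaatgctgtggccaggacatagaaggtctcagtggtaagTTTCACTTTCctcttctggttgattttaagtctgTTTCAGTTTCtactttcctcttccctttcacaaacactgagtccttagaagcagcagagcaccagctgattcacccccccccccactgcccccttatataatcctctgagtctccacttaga

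Genes of the mature and migratory list were higher in young CA, and fewer were once Ccr7 cells were left out. Without Ccr7 itself, 13 of 18 measured genes were called higher and 1 lower, where 5.72% and 5.28% of all genes were. The median log2 ratio was 1.43, and 9 other genes of the list were below the limits of measurement. Ccl5 was at 63.9 CPM in young sham and 1031 after CA, and at 0 and 5150 in the aged pair (16.1-fold in young, 10.2 to 27.3). Its 18 young sham UMIs came from 2 cells, of which 1 gave 94.4%, and 27 of the 83 young CA cells held a UMI. Fscn1 was at 17.8, 121, 17.1 and 5.08 CPM (6.79-fold in young, 2.86 to 21.1). Traf1 was at 67.5, 300.3, 0 and 137 CPM (4.45-fold in young, 2.82 to 7.46). Without cells that held a Ccr7 UMI, 2 of 14 measured genes were called higher and 1 lower (median 0.37), where 5.24% of all genes were called higher and 4.74% lower. Among Cd209a cells 3 of 14 were called higher and 2 lower, where 10.2% and 5.36% of all genes were. Among filtered cells, which hold 9 of the 14 young CA Ccr7 cells, 11 of 16 were called higher and 1 lower (median 1.32), where 9.69% and 4.76% of all genes were. In cells without Ccr7 the log2 ratio of Ccl5 was 0.69, that of Fscn1 -0.83 and that of Relb -0.05.

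The spread of this list across cells followed the subsets. Its summed level was 6410 to 44280 CPM in the 16 Ccr7 cells (median 19170) and 317 to 10664 in the other 95 cells (median 1073). By library the medians were 932 CPM in young sham and 1297 after CA, and 1321 and 817 CPM in the aged pair, so they lay closer together than those of Ccr7 and other cells. In aged CA the 2 Ccr7 cells were at 24560 and 29528 CPM and the other 7 between 422 and 1655.

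Checkpoint ligands were among the genes that were higher in young CA. Of 6 measured ligands 4 were called higher and 0 lower (median log2 ratio 1.14), where 5.72% and 5.28% of all genes were. Without Ccr7 cells 2 of 6 were called higher and 0 lower (median 0.75, with 5.24% of all genes higher), and among filtered cells 3 of 6 higher and 0 lower (median 1.25, with 9.69% higher). Pdcd1lg2, or PD-L2, had 0 UMIs in young sham and 47.6 CPM after CA, and 0 and 20.3 CPM in the aged pair, at least 4.47-fold higher in young. It was detected in 28 of 83 young CA cells, and its log2 ratio was 2.17 without Ccr7 cells. Cd274 was at 21.3, 125, 0 and 66.1 CPM (5.88-fold in young, 2.66 to 16.2), with a log2 ratio of 0.70 without Ccr7 cells and -0.22 among Cd209a cells. Lgals9, or galectin 9, was at 78.1, 183, 120 and 66.1 CPM (2.34-fold in young, 1.52 to 3.79).

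Genes of cDC2 were lower in young CA, with exceptions. Without Cd209a itself, 7 of 13 measured genes of the list were called lower and 2 higher (median log2 ratio -1.04). The shares over all measured genes were 5.28% lower and 5.72% higher. Mgl2, a galactose-type lectin of cDC2 and macrophages (chr11:70130329-70137550, GRCm38), was at 788 CPM in young sham and 49.95 after CA, and at 51.3 and 127 in the aged pair. The young CA level was 15.8-fold lower (12.2 to 20.5), and Mgl2 was detected in 7 of 83 cells against 10 of 15. Clec10a was at 245, 62.3, 0 and 168 CPM (3.93-fold lower in young CA, 2.86 to 5.38), and 1 cell gave 60.9% of the young sham UMIs. Irf4 was at 88.8, 20.6, 0 and 76.3 CPM (4.32-fold lower, 2.48 to 7.42), and Klf4 at 142, 44.7, 0 and 61.0 (3.18-fold lower, 2.11 to 4.72). Cd300a, the gene of the list with the most UMIs, went the other way, at 185, 364, 34.2 and 208 CPM, but was not called. Cd7 and the cytokine gene Ltb were the 2 called higher, and Cd7 was at 24.9, 138, 0 and 20.3 CPM (5.56-fold in young, 2.66 to 14.0), with 85.7% of the young sham UMIs in 1 cell.

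The lower cDC2 values were also seen within Cd209a cells. Detection of Cd209a sufficed for this subset, so its cells were not matched between the young libraries on Cd209a level. Over all members Cd209a was at 1065 CPM in young sham and 209 in young CA. There 8 of 13 genes were called lower and 3 higher (median -1.30), where 5.36% of all measured genes were called lower, and in filtered cells the counts were also 8 and 3 (median -1.46, with 4.76% called lower). Without Ccr7 cells 7 were called lower and 3 higher (median -1.34, with 4.74% called lower). Per cell, the summed list was at a median of 2372 CPM in young sham and 1073 after CA, where 6 of 83 cells lay above the sham median. The list is not restricted to dendritic cells, since microglia-set cells of young sham held 1921 CPM of it.

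Macrophage transcripts moved with the cDC2 genes. Of the 10 border macrophage genes 5 were measured, and all 5 were called lower in young CA, against 5.28% of all measured genes. Mrc1, Cd163 and F13a1 reached the 20% of cells needed in young sham only. They thus entered the count through the library where they were higher, and the count is no separate support. Mrc1, the mannose receptor, was at 714 CPM in young sham and 20.6 after CA, and at 461 and 20.3 in the aged pair (34.7-fold lower in young CA, 24.1 to 51.2). It was detected in 8 of 15 and 6 of 83 cells of the young libraries. Among Cd209a cells its log2 ratio was -4.72, and among filtered cells -4.48. The summed border macrophage list ran from 0 to 38084 CPM in young sham cells (median 204) and from 0 to 28918 in young CA cells (median 147). Apoe, the apolipoprotein that macrophages express strongly, had a log2 ratio of -1.93 over all cells and 0.90 among filtered cells. Apoe and Mrc1 are on the border macrophage list that the filter used, so their filtered values are not independent of that selection. The part of macrophage RNA in the lower cDC2 values was not tested beyond these values.

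Antigen presentation genes differed little among the selected cells. The rule required class II transcripts in every cell of both libraries, so genes of the class II pathway are not free of the selection. Over all measured genes 5.72% were called higher and 5.28% lower. Of 8 measured class II pathway genes outside the rule 1 was called higher and 0 lower (median log2 ratio -0.34). The one was Ifi30, a thiol reductase of lysosomes that interferon gamma induces, at 731 CPM in young sham and 2096 after CA, and at 239 and 1002 in the aged pair (2.87-fold in young, 2.49 to 3.31). Ciita, the master regulator of class II genes, was at 423, 296, 342 and 346 CPM. Of 15 class I pathway genes 1 was called higher and 0 lower (median 0.49): Nlrc5, the class I transactivator, was at 49.7, 120.5, 120 and 40.7 CPM (2.42-fold in young, 1.41 to 4.51). H2-K1 was at 976, 1466, 1350 and 666 CPM.

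**Figure D5:**
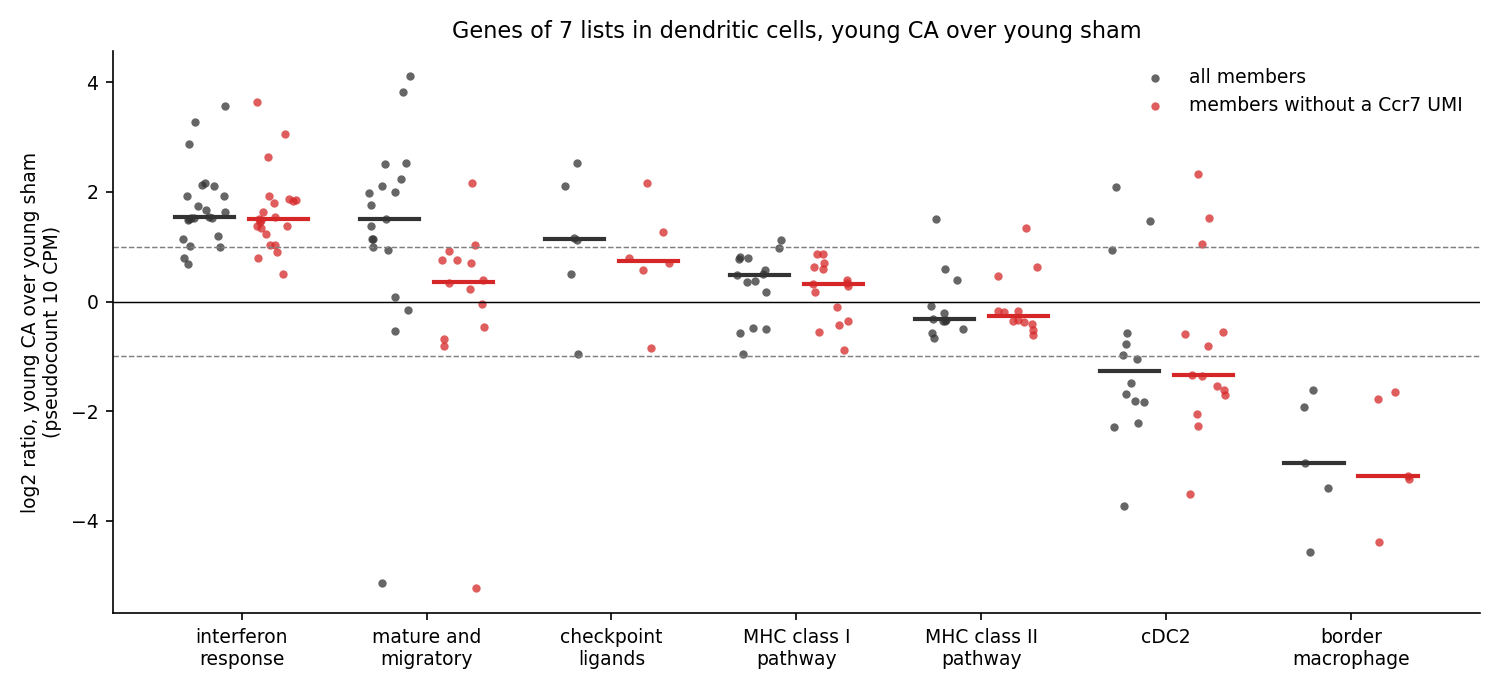
Log2 ratio of young CA over young sham for the measured genes of 7 lists, with all members in dark grey and members without a Ccr7 UMI in red; thick lines are medians and dashed lines mark 2-fold. The mature list holds Ccr7 and the cDC2 list Cd209a, which are rule genes. Without Ccr7 cells the interferon median is 1.5 and the mature median 0.37.

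Chemokines and their receptors differed gene by gene. Of 8 measured chemokines 5 were called higher and 2 lower (median log2 ratio 1.28), where 5.72% and 5.28% of all genes were. But the median was -0.55 without Ccr7 cells, -0.92 among Cd209a cells and -0.19 without cells marked as doublets. Among filtered cells it was 0.71, with 3 of 7 called higher and 2 lower, and -0.07 with the gene at 0 set to its bound, so the list had no stable direction. Ccl17, which draws Ccr4-bearing T cells, was at 362 CPM in young sham, from 4 cells of which 1 gave 57.8% of the UMIs, and at 0.588 in young CA, from 1 UMI. It was at 519 CPM in aged CA, from 4 cells, and had 0 UMIs in aged sham. Ccl4 had 0 UMIs in young sham and 205 CPM in young CA, of which 1 cell gave 55.0%. Cxcr4, the receptor of Cxcl12, was at 10.7, 113, 17.1 and 96.6 CPM (10.6-fold in young, 3.57 to 51.8), in 44 of 83 young CA cells, with a log2 ratio of 1.99 without Ccr7 cells. Ccr2 was at 799, 444, 478 and 239 CPM, a log2 ratio of -0.83 in young that did not reach 2-fold.

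Further genes had wide margins, and most of them came from many cells. Rgs1, which damps chemokine receptor signaling, had 0 UMIs in young sham and 162 CPM after CA from 36 cells, and 34.2 and 122 CPM in the aged pair, at least 15.2-fold higher in young. Mxd1, an antagonist of Myc, was at 7.1, 159, 51.3 and 40.7 CPM (22.4-fold in young, 6.15 to 186), with 2 UMIs in young sham and 53 positive cells in young CA. Acadl, an enzyme of fatty acid oxidation, was at 17.8, 184, 103 and 112 CPM (10.4-fold in young, 4.39 to 32.1). Cyp4f18 had 0 UMIs in young sham and 81.1 CPM after CA, and 68.3 and 55.9 CPM in the aged pair, at least 7.61-fold higher in young. Hepacam2 was at 146, 7.05, 0 and 20.3 CPM (20.6-fold lower in young CA, 10.6 to 43.1). Klra2, a lectin-like receptor of the Ly49 family, was at 128, 7.05, 290 and 5.08 CPM (18.1-fold lower, 9.22 to 38.3).

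Single cells carried other large values. Spp1, or osteopontin, had 0 UMIs in young sham and 447 CPM in young CA, where 1 cell gave 61.8% of the UMIs. F13a1, a coagulation factor subunit of macrophages and monocytes, was at 369 CPM in young sham, of which 1 cell gave 84.6%, and 25.9 in young CA. Negr1, a neuronal adhesion molecule, was at 117 CPM in young sham, 93.9% of it in 1 cell, and 5.29 in young CA. These 3 differences describe few cells.

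The aged libraries held 4 and 9 dendritic cells, under the 10 cells set for a comparison across genes, and are given as values. In aged CA 5150 CPM of Ccl5 came from 4 cells and the 96.6 CPM of Ccr7 from 2. Irf8 was at 1145 CPM in aged sham, where all 4 cells carried Xcr1 or Clec9a, and 81.3 in aged CA. The cDC1 list without Xcr1 and Clec9a summed to 7455 CPM in the 1 filtered cell of aged sham, but its median over the 4 cells was 1015. Mrc1 was at 461 CPM in aged sham and 20.3 in aged CA, beside a summed border macrophage list of 12147 and 102 CPM. Il1r2 had 0 UMIs in aged sham and 361 CPM in aged CA, in 7 of 9 cells. With so few cells, each level rests on single cells, and the makeup of subsets differs between the 2 libraries.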

How the data were processed

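CD45-positive brain cells of 4 libraries, each pooled from 3 mice, were measured with 10x Genomics 3' v3.1 chemistry. The authors deposited whole-number UMI counts per gene and barcode, for which the submitters' processing notes name Cell Ranger 7.1.0 and mm10; which annotation was used and how cells were called is not given in the sources used here. The counts listed 32285 genes, and the lowest barcode held 500 UMIs, so a floor had been applied. From the deposited counts, members were selected by the rule in the report and their counts summed per library or subset and divided by the sum (CPM). The members, lists and named genes were chosen with earlier results of these data known. Shares carry exact Clopper-Pearson intervals and ratios exact conditional binomial intervals. UMIs remove PCR copies, but intervals cover counting error only. A fold against a group with 0 UMIs uses a floor of 3 UMIs over that group. No test between conditions was run, since each group has 1 library. Depth was 44277472 to 115892682 UMIs per library.

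The genes named were the 12 higher and 12 lower with the counting bound farthest from 1, the 10 highest of each subset, rule genes and up to 4 genes of each of 27 lists by UMIs; others were named after their values were seen. Of list symbols, 4 (Cxx1a, Amica1, Clec7a, Mx1) did not match a name in the files. The values of 1 list gene are not reported here. Mitochondrial, ribosomal protein, haemoglobin and antigen receptor variable genes, Xist, Tsix and 4 Y-linked genes were left out of comparisons across genes. Doublets were scored with Scrublet in scanpy 1.11.5; the automatic threshold marked at most 6 barcodes in a library, so the highest scores were marked at 0.8% per 1000 barcodes, and members so marked were kept. Leaving out cells high in microglial, border macrophage or plasmacytoid transcripts, and cells with Ccr7, were alternatives chosen after seeing the data. Promoters are from RefSeq, matched by symbol, and gene positions from GENCODE on GRCm38, matched by gene ID. The comparison was tested on simulated data. Python 3.11.15, numpy 2.4.6, scipy 1.17.1, pandas 2.3.3 and matplotlib 3.10.9 were used.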

Additional observations from a re-analysis of the deposited data

How the results depend on the processing

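No paired analysis was possible because each group has 1 library. The young CA to sham share kept its direction under the 8 settings that gave a value: its log2 ratio was 2.18 and became 3.62 when barcodes were thinned to 1000 UMIs, from 15 and 1 cells. Thinning turned aged sham against young sham from -1.6 to 0.31, from 1 cell each, and left 0 aged CA cells. Leaving out cells with 3 or more of 12 microglial markers left 0 young sham and 0 aged sham cells, and moved aged CA against young CA from -2.42 to -0.54, from 2 and 5 cells. Of the genes called in young CA, 443 higher and 409 lower, the counts became 808 and 743 with 1 CPM added, 119 and 89 with 50 CPM added, 617 lower with genes of at least 5 UMIs, 693 lower with the mean over cells, and 667 higher among filtered cells, where Cd209a cells against the other subsets went from 241 to 386 higher and Xcr1/Clec9a cells from 372 to 579 lower. The higher share of calls was 52.0% and became 43.2% with the mean over cells, 65.6% among Cd209a cells and 67.0% among filtered cells. Chemokine medians turned to -0.92 (Cd209a cells), -0.55 (without Ccr7 cells) and -0.19 (without doublet-marked cells). The causes were not tested. Without young CA the subsets had 9, 12 and 2 cells and gave no value.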

Other observations

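Other groups of genes were read in the same cells, young CA against young sham. Over all 7743 measured genes 5.72% were called higher and 5.28% lower. Among 8 growth factor receptors outside the rule 0 were called higher and 1 lower (median log2 ratio 0.30): Csf1r, the receptor of macrophage growth factor, was at 525 CPM in young sham and 251 after CA, and at 666 and 203 in the aged pair. Of 9 measured pattern receptors and adaptors outside the rule 1 was called higher and 3 lower (median -0.15). Clec12a, an inhibitory lectin that senses uric acid crystals, was at 181, 42.3, 290 and 91.5 CPM (4.28-fold lower in young CA, 2.93 to 6.21). Of 10 glucocorticoid-responsive genes 4 were called higher and 1 lower (median 0.01), so the list showed no common direction. Il1r2 was at 7.1, 81.1, 0 and 361 CPM in the 4 libraries in that order, and Fkbp5, a widely used glucocorticoid target, at 103, 132, 51.3 and 417. Of 20 cell cycle genes 3 were measured, and none of the 3 reached 2-fold in either direction. Of 16 genes of migration and the cytoskeleton 4 were called higher and 0 lower (median 0.74), and Cd63, a tetraspanin of late endosomes, was at 49.7, 241, 222 and 173 CPM, the last from 1 cell. Of 13 immediate early genes 2 were called higher and 1 lower (median -0.38).

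Markers of other cells were mixed. Of 12 measured monocyte genes 5 were called higher and 4 lower (median log2 ratio -0.15), where 5.72% and 5.28% of all genes were. Plac8 was at 476 CPM in young sham and 2393 after CA, and at 85.4 and 559 in the aged pair, with 58.2% of the young sham UMIs in 1 cell, while Lyz2, lysozyme, was at 2024, 519, 5211 and 137. Of 11 measured microglial genes 0 were called higher and 1 lower (median -0.57). Siglech, a lectin of plasmacytoid cells and microglia, had a log2 ratio of -1.48, with 61.0% of its young sham UMIs in 1 cell. Among filtered cells its log2 ratio was 1.32, but Siglech is on the plasmacytoid list that the filter used.

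Of 19 genes of the mature list with a promoter entry, 1 (Pdcd1lg2) held the NF-kB consensus in the 250 bases before its start, as did 7.25% of 32851 promoters. Among the 10 leading Ccr7 genes, 0 of the 8 with an entry held it, which says only that these letters are not in this window.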
